A study of Zea mays with 18 samples.

Results

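Malate dehydrogenases 3, 4 and 6 (mdh3, mdh4 and mdh6) were followed across late kernel development in the maize inbred lines DAN3130 and JI63. The members were the loci of the deposited count table that hold the gene models Zm00001d044042 (malate dehydrogenase3), Zm00001d032695 (malate dehydrogenase4) or Zm00001d031899 (malate dehydrogenase6), with separate entries for introns left out, which gave 3 loci of 77704. The study compared kernels of both lines to follow folate accumulation, and RNA-seq was made from whole kernels at 24 days after pollination (DAP 24), at DAP 35 and at maturity, after the plants had yellowed. Each of the 6 groups (DAN3130 and JI63 at DAP 24, at DAP 35 and at maturity) had 3 libraries, called replicates by the library number in their labels. Both lines were grown in the same field season, and neither line was treated or carried a transgene. The labels call the libraries biological replicates without tying them to separate plants or ears, so p-values measure the spread between these libraries.

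Malate dehydrogenase interconverts malate and oxaloacetate while reducing or oxidising a nicotinamide cofactor. Plants keep separate isozymes in separate compartments. In maize, mdh4 encodes a cytosolic NAD-dependent enzyme, which can make the malate that carries reducing power between compartments. Mdh3 encodes a mitochondrial NAD-dependent enzyme, which acts in the tricarboxylic acid (TCA) cycle. Mdh6 encodes the plastid NADP-dependent enzyme, best known for reducing oxaloacetate to malate in mesophyll chloroplasts of the leaf. Mdh2, the only other locus that the table names as a malate dehydrogenase, also encodes a mitochondrial enzyme and is given beside the members.

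The coordinates are those of the assembled loci on the B73 version 4 genome. Mdh3 was on chromosome 3 from 217573116 to 217581039, with 1 assembled transcript of 3199 bases. Mdh4 was on chromosome 1 from 234902658 to 234908089, with 1 transcript of 1472 bases. Mdh6 was also on chromosome 1, from 205992135 to 205996075, with 3 transcripts of up to 1922 bases. Mdh2 was on chromosome 6 from 169782354 to 169787367, with 2 transcripts of up to 1565 bases. Each of these loci held a single gene model. Reads were mapped without regard to strand, so sense reads and any antisense reads over a locus cannot be told apart. Both lines were mapped to B73, and a line difference in expression and a line difference in how well reads map cannot be told apart.

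The libraries held between 9428728 and 133264978 reads over all loci, the fewest in DAN3130 mature replicate 34 and the most in JI63 DAP 35 replicate 26. Values are normalised read counts, which are reads divided by the authors' size factor of each library. DAN3130 mature kernels were the group whose libraries were least alike, with pairwise correlations across genes of 0.763 to 0.827, against 0.912 to 0.984 within the other 5 groups. Of 13 starchy endosperm markers (zeins, starch synthesis genes and their regulator opaque2), 8 were detected, and 5, among them floury2 and the 27-kDa zein, were at 0 in every library. Their summed level ran from 1893 to 25745 in mature DAN3130 and from 458 to 2998 in mature JI63, against at least 754650 in DAP 35 DAN3130 and at least 197877 in DAP 35 JI63. At DAP 24 it ran from 1456770 to 1760040 in DAN3130 and from 692803 to 1337770 in JI63, above every DAP 35 library of the same line. The 3 markers of the basal endosperm transfer layer, the tissue that takes up sugars from the mother plant, summed to 6708 to 7228 in DAN3130 and 4999 to 5344 in JI63 at DAP 24, and to at most 29.2 in mature DAN3130 and 0 in mature JI63. The 6 embryo markers (oleosins, globulins and viviparous1) summed to 357765 to 474727 in DAN3130 and 646826 to 718110 in JI63 at DAP 24. They summed to 980598 to 1127990 in DAN3130 and 1014470 to 2805430 in JI63 at DAP 35. Mature kernels had 444268 to 1938130 in DAN3130 and 2104400 to 2911950 in JI63, overlapping with DAP 35 in both lines. Oleosin3 was at 0 in every library and oleosin4 averaged 0.05. The starchy endosperm and transfer layer markers thus fell with stage, and the embryo markers were higher at DAP 35 than at DAP 24. The part of these markers in the changes given here was not tested. In bulk kernels, fewer cells of a type and less RNA per cell cannot be told apart.

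At DAP 24 the cytosolic gene mdh4 had the highest signal of the members in both lines and mdh6 the lowest. Mdh4 had 5004, 4629 and 4089 normalised counts in DAN3130 DAP 24 kernels (replicates 8, 10 and 11) and 4915.9, 4115.0 and 4699.9 at DAP 35 (replicates 12, 13 and 14). Mature DAN3130 kernels had 528.6, 502.9 and 262.4 (replicates 33, 34 and 35). The DAP 24 and DAP 35 ranges overlapped, and every mature library lay below both.

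In JI63, mdh4 had 4247, 3784 and 3586 normalised counts at DAP 24 (replicates 22, 24 and 25) and 3447.5, 3151.0 and 3414.6 at DAP 35 (replicates 26, 27 and 29). Mature JI63 kernels had 141.9, 287.8 and 124.1 (replicates 39, 40 and 41). In JI63 all 3 stages were separate, with DAP 24 highest and maturity lowest, whereas in DAN3130 maturity alone was separate. Behind the mature values stood 142 to 243 mdh4 reads a library in DAN3130 and 51 to 139 in JI63.

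Mdh3, the mitochondrial member, had 1762, 1881 and 1694 normalised counts in DAN3130 at DAP 24 and 1018.4, 921.9 and 927.4 at DAP 35. In mature DAN3130 it had 72.4, 162.9 and 81.0, from 30 to 75 reads a library. The 3 stages did not overlap in DAN3130.

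In JI63, mdh3 had 1129, 1178 and 1411 normalised counts at DAP 24 and 1484, 1683 and 1271 at DAP 35. It had 410.2, 509.3 and 688.9 in mature JI63 kernels. The 2 immature stages overlapped in JI63, and the mature libraries lay below them but above every mature DAN3130 library.

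Mdh6, the plastid enzyme, had the lowest signal of the members before maturity. DAN3130 had 249.4, 238.8 and 181.1 normalised counts at DAP 24 and 375.0, 155.9 and 336.8 at DAP 35. At maturity DAN3130 had 82.1, 116.9 and 393.1, and the 3 stages overlapped. Replicate 35 was several times above the other mature libraries for mdh6, while it had the lowest mdh4 value of the group. In the same library the summed level of the 6 embryo markers was 1938130, against 444268 and 899603 in mature replicates 33 and 34, and the part of this in the mdh6 value was not tested.

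JI63 had 475.8, 483.6 and 354.9 normalised counts of mdh6 at DAP 24 and 787.9, 857.7 and 824.9 at DAP 35. At maturity it had 521.2, 701.8 and 535.5. The DAP 35 libraries lay above those of the other stages, and the mature libraries lay above those of DAP 24. At each of the 3 stages every JI63 library was above every DAN3130 library.

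**Figure D1:**
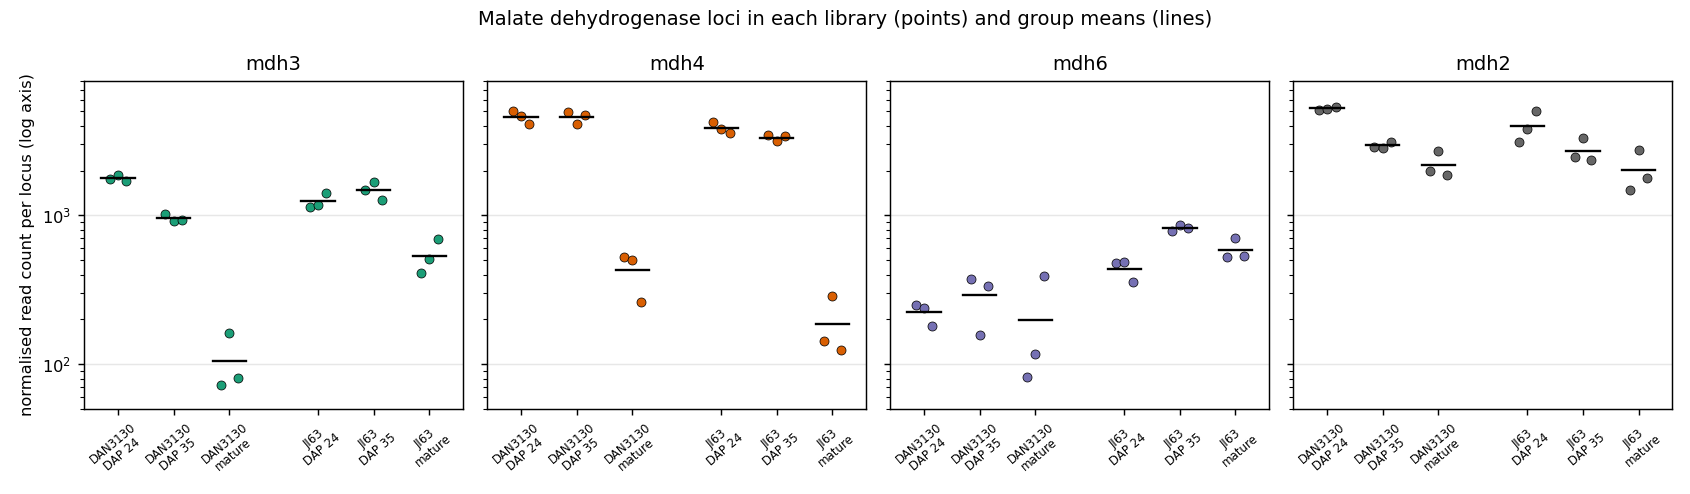
Normalised read count per locus (log axis) of mdh3, mdh4, mdh6 and mdh2 in the 18 libraries, with DAN3130 on the left and JI63 on the right of each panel and stages in order of age. Points are libraries and lines are group means of 3 libraries. Mdh4 and mdh3 were lowest at maturity in both lines, mdh6 lay higher in every JI63 library than in every DAN3130 library of the same stage, and mdh2 averaged 2183 in mature DAN3130 and 2009 in mature JI63.

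To compare the members with each other, each signal was divided by the length of the longest assembled isoform, and the isozyme share was the part of each locus, in percent, of the sum of the 3 members in that library. Shares are given as a description, and they depend on the isoform lengths of the assembly. The 3199 bases assembled for mdh3 may hold more than its annotated transcript, which would make its share too low. In DAN3130, mdh4 held 83.3%, 81.5% and 81.7% of the sum at DAP 24 and 86.7%, 88.3% and 87.3% at DAP 35. Mdh3 held 13.5%, 15.2% and 15.6% at DAP 24 and 8.3%, 9.1% and 7.9% at DAP 35. The mdh4 share was higher and the mdh3 share lower in every DAP 35 library than in every DAP 24 library. Mdh6 held 3.2%, 3.2% and 2.8% at DAP 24 and 5.1%, 2.6% and 4.8% at DAP 35, and these ranges overlapped.

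JI63 at DAP 24 was also led by mdh4, which held 82.8%, 80.6% and 79.6%. Mdh3 held 10.1%, 11.5% and 14.4% there, and mdh6 held 7.1%, 7.9% and 6.0%, above every DAN3130 library of that stage. At DAP 35 mdh4 held 72.8%, 68.8% and 73.7%, below every JI63 DAP 24 library and every DAN3130 DAP 35 library. Mdh6 held 12.7%, 14.3% and 13.6% at DAP 35, above every JI63 DAP 24 library, and mdh3 held 14.4%, 16.9% and 12.6%, which overlapped with DAP 24.

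At maturity the isozyme with the highest mean share was mdh4 in DAN3130 and mdh6 in JI63. The lead of mdh6 over mdh3 in mature JI63 depended on the division by length. Undivided, mdh6 averaged 45.0% ± 4.69 and mdh3 41.1% ± 8.91 there (SD, n = 3), and in replicate 41 mdh3 was ahead, at 51.1% against 39.7%. In mature DAN3130, mdh4 held 84.6%, 75.4% and 43.7%, mdh3 5.3%, 11.2% and 6.2%, and mdh6 10.1%, 13.4% and 50.1%. The mdh4 share averaged 67.9% ± 21.5 and the mdh6 share 24.5% ± 22.2 (SD, n = 3). Replicate 35 lay apart from the other libraries, and without it mdh6 averaged 11.7% and mdh4 80.0%. It was also the deepest of the group, with 37739888 reads over all loci against 11891237 and 9428728 in replicates 33 and 34. It held 364 mdh6 reads, against 34 and 33 in those replicates. In the paper's sequencing overview, the mature DAN3130 replicates also differed in GC content (the share of G and C bases) and in the share of reads mapped. The deepest was close to mature JI63 in GC content, and the others were lower in both measures than every mature JI63 replicate. The part of this in the shares was not tested. Which of these libraries is nearer to the kernels of this group cannot be told. In mature JI63, mdh6 held 54.7%, 50.7% and 48.2%, mdh3 held 25.9%, 22.1% and 37.2%, and mdh4 held 19.4%, 27.2% and 14.6%. The mdh4 and mdh3 shares of the lines did not overlap at maturity, while the mdh6 share of DAN3130 replicate 35 fell inside the JI63 range. The averages in mature JI63 were 51.2% ± 3.28 for mdh6, 28.4% ± 7.87 for mdh3 and 20.4% ± 6.34 for mdh4 (SD, n = 3).

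**Figure D2:**
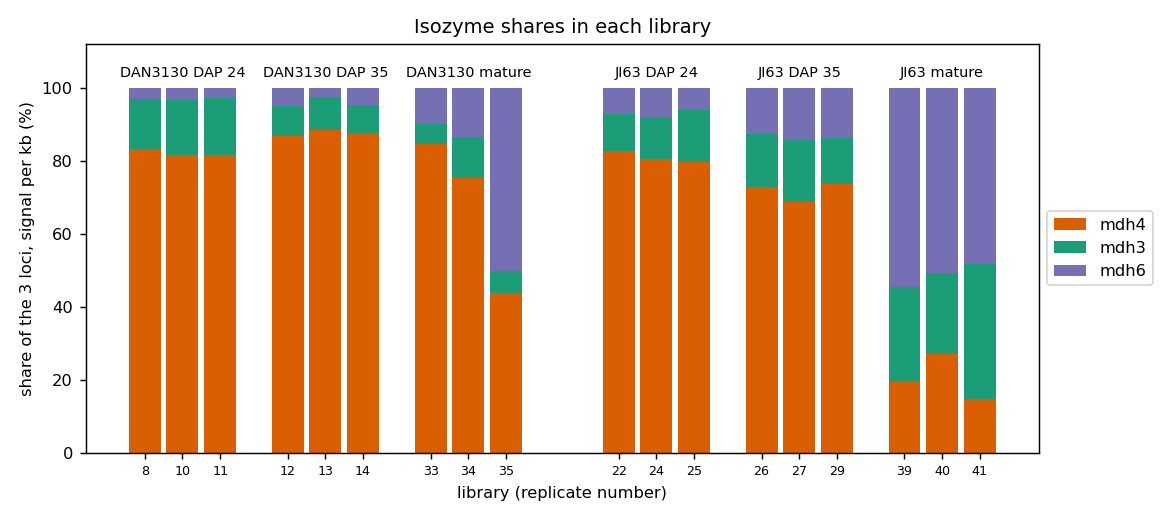
Isozyme share of mdh4, mdh3 and mdh6 (percent of the sum of the 3 loci, signal per kilobase) in each library, 1 bar a library named by its replicate number, with DAN3130 left of JI63. Mdh4 took 68.8% to 88.3% of every bar before maturity and 14.6% to 27.2% in mature JI63. Mature DAN3130 replicate 35 stands apart from replicates 33 and 34.

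The sum of the 3 loci also changed with stage. Per kilobase it averaged 3780 ± 346 normalised counts at DAP 24, 3559 ± 355 at DAP 35 and 428.6 ± 22.9 at maturity in DAN3130, and 3246 ± 217, 3158 ± 52.5 and 598.0 ± 113 in JI63 at the same stages (SD, n = 3 each). The mature shares were thus shares of a much smaller sum. With mdh2 counted in the whole, mdh6 held 16.6% ± 2.1 and mdh4 6.49% ± 1.5 of the 4 loci in mature JI63, and mdh2 itself held 67.7% ± 2.93 there and 76.2% ± 2.75 in mature DAN3130 (SD, n = 3 each).

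The order of levels per kilobase differed between the groups. In DAN3130 at DAP 24 it was mdh2, mdh4, mdh3 and mdh6 with means of 3342, 3107, 556.1 and 116.1 normalised counts per kilobase, and the ranges of mdh2 and mdh4 overlapped. At DAP 35 in DAN3130 mdh4 was first and no neighbours overlapped. In mature DAN3130, mdh2 was clear of the rest at 1395, and mdh4 at 293.0, mdh6 at 102.7 and mdh3 at 33.0 each overlapped with its neighbour among the members.

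In JI63 at DAP 24 mdh4 and mdh2 were first and overlapped, and mdh3 and mdh6 followed without overlap. At DAP 35 mdh3 at 462.5 and mdh6 at 428.5 normalised counts per kilobase overlapped. In mature JI63 mdh2 was first at 1284, mdh6 followed at 305.0, and mdh3 at 167.6 and mdh4 at 125.4 overlapped. By group mean, the place of mdh4 among the members was thus first in 5 groups and last in mature JI63. It did not hold in every library. In mature DAN3130 replicate 35 mdh6 was above mdh4, at 204.5 against 178.3 normalised counts per kilobase. In mature JI63 replicate 40 mdh4 was above mdh3, at 195.5 against 159.2.

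The stage comparisons used limma on log2(normalised count + 1), with Benjamini-Hochberg adjustment over 29191 loci, and a locus was called at an adjusted p under 0.05. Fold changes and log2 differences are on that scale. All 6 groups shared 1 spread per locus in this fit. Over all loci tested, the SD within a group was 1.97 in mature DAN3130 and 1.19 in mature JI63, against 0.61 to 0.89 in the immature groups. The p-values can thus be too small where mature DAN3130 is compared and too large between immature groups. Between DAP 35 and DAP 24 no member was called in either line, where 6.55% of all loci tested were called in DAN3130 and 9.09% in JI63. Mdh3 averaged 955.9 ± 54.2 normalised counts at DAP 35 and 1779 ± 94.6 at DAP 24 in DAN3130, a log2 difference of -0.90 (SE 0.27, adjusted p = 0.059 in limma). This value lay just outside the threshold, and 6 of 25 alternative settings called it, with adjusted p from 0.00281 to 0.186. In JI63 the mdh3 difference was 0.25 (SE 0.27, limma adjusted p = 0.749).

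Mdh4 differed by 0.0018 on the log2 scale between DAP 35 and DAP 24 in DAN3130 and by -0.21 in JI63 (SE 0.28 each, limma adjusted p = 1 and 0.836). Mdh6 differed by 0.29 in DAN3130 and by 0.92 in JI63 (SE 0.46 each, limma adjusted p = 0.863 and 0.275). In JI63 the mdh6 libraries of the 2 stages did not overlap, but the difference was not called. Mdh2 was called lower at DAP 35 than at DAP 24 in DAN3130 (log2 difference -0.82, SE 0.23, limma adjusted p = 0.0418), and was not called in JI63 (-0.54, limma adjusted p = 0.181). The mdh2 call in DAN3130 held in 12 of 25 alternatives, with adjusted p from 0.00227 to 0.128, and was lost among others without any 1 of the 6 libraries compared. The line difference in this step of mdh2 was called in 0 of 25 alternatives, with adjusted p from 0.483 to 0.984. The 2 mdh2 results thus show no difference between the lines.

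Between maturity and DAP 35, mdh3 and mdh4 fell in both lines and mdh6 was not called in either. In DAN3130 2 of 3 members were called lower, where 50.7% of all loci tested were called and 31.5% were called lower. In JI63 2 of 3 members were called lower, where 45.6% of all loci tested were called and 27.8% were called lower. Mdh4 averaged 431.3 ± 147 normalised counts in mature and 4577 ± 414 in DAP 35 DAN3130 kernels, 11.1-fold lower (log2 difference -3.47, SE 0.28, limma adjusted p = 1.36e-07). In JI63 it averaged 184.6 ± 89.8 in mature and 3338 ± 163 in DAP 35 kernels, 19.3-fold lower (log2 difference -4.27, SE 0.28, limma adjusted p = 2.92e-08).

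Mdh3 averaged 105.4 ± 49.96 normalised counts in mature and 955.9 ± 54.2 in DAP 35 DAN3130 kernels, 9.60-fold lower (log2 difference -3.26, SE 0.27, limma adjusted p = 1.39e-07). In JI63 it averaged 536.1 ± 141 in mature and 1479 ± 206 in DAP 35 kernels, 2.80-fold lower (log2 difference -1.49, SE 0.27, limma adjusted p = 0.000319). All 25 alternatives kept these calls of mdh3 and mdh4. The median log2 change of all loci was -0.43 in DAN3130 and -0.36 in JI63, and with every library scaled to the same total it was -0.86 and -1.18. The 4 called changes were larger in size than these medians under both scalings.

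Mdh6 averaged 197.3 ± 170 normalised counts in mature and 289.2 ± 117 in DAP 35 DAN3130 kernels, a log2 difference of -0.79 (SE 0.46, limma adjusted p = 0.162). Without mature replicate 35 the difference was -1.45 and was called (limma adjusted p = 0.0024), within a range of 0.0024 to 0.556 over 25 alternatives. In JI63 mdh6 averaged 586.2 ± 100 in mature and 823.5 ± 34.9 in DAP 35 kernels, a log2 difference of -0.50 (SE 0.46, limma adjusted p = 0.404), beside the median of -0.36 over all loci. With every library scaled to the same total, mdh6 was called lower at maturity in both lines, by -1.26 in DAN3130 and -1.45 in JI63, beside medians of -0.86 and -1.18 (limma adjusted p = 0.0186 in DAN3130 and 0.00808 in JI63, where 25 alternatives ran from 0.00808 to 0.574). Mdh2 was not called at maturity in either line, with log2 differences of -0.46 in both (SE 0.23, limma adjusted p = 0.105 in DAN3130 and 0.11 in JI63), and 2 of 25 alternatives called it in each line.

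The same step was then compared between the lines. The change of mdh3 to maturity differed, at -1.49 in JI63 and -3.26 in DAN3130, a difference of 1.78 on the log2 scale (SE 0.38, limma adjusted p = 0.00562). This was 1 of 3 members, where 13.8% of all loci tested were called. For mdh4 the difference between the lines was -0.80 (SE 0.40, adjusted p = 0.200) and for mdh6 0.29 (SE 0.64, adjusted p = 0.802), and neither was called by limma. For the step to DAP 35 no member was called, where 2.36% of all loci tested were called. The largest of these differences was that of mdh3, at 1.15 (SE 0.38, limma adjusted p = 0.139), which 3 of 25 alternatives called, with adjusted p from 0.00253 to 0.271.

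Between the lines at the same stage, no member was called at DAP 24, where 24.8% of all loci tested were called. The log2 differences, DAN3130 minus JI63, were 0.53 for mdh3, 0.24 for mdh4 and -0.97 for mdh6 (limma adjusted p = 0.187, 0.651 and 0.148). At DAP 35 mdh6 alone of the members was called, lower in DAN3130, where 23.3% of all loci tested were called. Mdh6 averaged 289.2 ± 117 normalised counts in DAN3130 and 823.5 ± 34.9 in JI63, 3.04-fold lower in DAN3130 (log2 difference -1.60, SE 0.46, limma adjusted p = 0.0166). Without DAN3130 DAP 35 replicate 13, the library with the lowest mdh6 value of its group, the difference was -1.21 and was not called (limma adjusted p = 0.0919), while the other 24 of 25 alternatives called it (adjusted p from 0.001 to 0.0919 over all 25). At this stage the starchy endosperm markers summed to 754650 to 826191 in DAN3130 and 197877 to 204151 in JI63, and the transfer layer markers to 1736 to 3244 in DAN3130 and 69.4 to 199 in JI63, and their part in the mdh6 difference was not tested.

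In mature kernels all 3 members were called between the lines, where 37.1% of all loci tested were called. Mdh3 was 5.27-fold lower in DAN3130 (105.4 ± 49.96 normalised counts) than in JI63 (536.1 ± 141), with a log2 difference of -2.40 (SE 0.27, limma adjusted p = 3.65e-06). Mdh6 was 3.71-fold lower in DAN3130, with a log2 difference of -1.89 (SE 0.46, limma adjusted p = 0.00417), which ran from -2.56 without DAN3130 replicate 35 to -1.43 without DAN3130 replicate 33. Mdh4 went the other way and was 2.39-fold higher in DAN3130 (431.3 ± 147) than in JI63 (184.6 ± 89.8), with a log2 difference of 1.26 (SE 0.28, limma adjusted p = 0.00261). The DAN3130 and JI63 libraries overlapped for mdh4, at 262.4 to 528.6 in DAN3130 and 124.1 to 287.8 in JI63, and did not overlap for mdh3 and mdh6. Fitted on the 6 mature libraries alone, mdh4 and mdh6 were not called (limma adjusted p = 0.175 and 0.139, the highest of 25 alternatives for each, the lowest being 0.000116 and 2.59e-05), while mdh3 was. The summed level of the 6 embryo markers was 444268 to 1938130 in mature DAN3130 and 2104400 to 2911950 in mature JI63, and its part in these differences was not tested. By the paper's overview, the mature DAN3130 replicates other than the deepest also had a lower GC content and mapped share than every mature JI63 replicate. The part of this in these differences was not tested either.

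**Figure D3:**
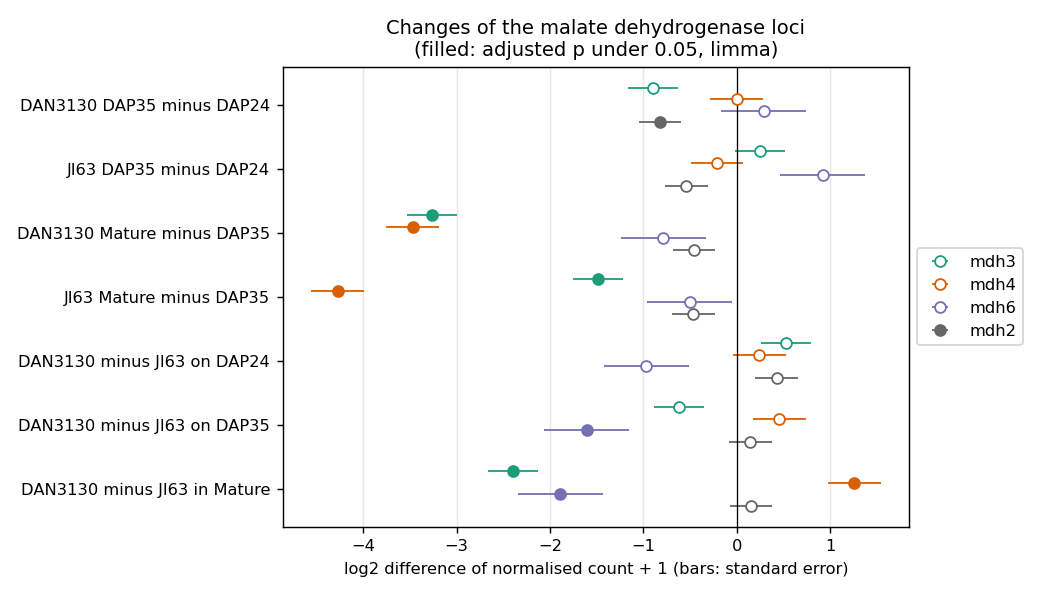
Log2 difference of normalised count + 1 (horizontal axis, with standard errors) of mdh3, mdh4, mdh6 and mdh2 in 4 stage comparisons and 3 line comparisons. Filled points passed an adjusted p of 0.05 in limma. Mdh4 had the largest falls, -3.47 in DAN3130 and -4.27 in JI63, both between maturity and DAP 35.

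Ratios between members within a library do not depend on how libraries were scaled. The 3 ratios were tested by exact permutation over libraries within each line or stage, two-sided, in 9 relations adjusted together by Benjamini-Hochberg. The smallest p possible was 0.005 for a stage step and 0.00025 for the lines. The ratio of mdh6 to mdh4 was higher at DAP 35 than at DAP 24 by 0.71 on the log2 scale (0.29 in DAN3130 and 1.13 in JI63, exact p = 0.02, adjusted 0.03). This was not called without DAN3130 DAP 35 replicate 12 or 14 (adjusted exact p = 0.0579 and 0.06, within a range of 0.015 to 0.06 over 20 alternatives). It was higher at maturity than at DAP 35 by 3.22 (2.68 in DAN3130 and 3.77 in JI63, exact p = 0.005, adjusted 0.0113). In mature DAN3130 the log2 ratio was -2.67, -2.10 and 0.58 in replicates 33, 34 and 35, and without replicate 35 the DAN3130 step was 1.69 and the mean over both lines 2.73, which was still called. It was lower in DAN3130 than in JI63 at every stage, by -2.14 on average (-1.21 at DAP 24, -2.06 at DAP 35 and -3.15 at maturity, exact p = 0.00025, adjusted 0.00225).

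The ratio of mdh3 to mdh6 was lower at DAP 35 than at DAP 24, with a mean log2 difference of -0.93 (exact p = 0.005, adjusted 0.0113). It was lower at maturity than at DAP 35, with a mean of -1.73 (exact p = 0.005, adjusted 0.0113). Both steps had the same sign in both lines. Between the lines its mean difference of 0.66 was not called (exact p = 0.106, adjusted 0.119), with 1.5 at DAP 24, 0.98 at DAP 35 and -0.51 at maturity. The sign at maturity rested on DAN3130 replicate 35, where the log2 ratio was -2.26, against -0.18 and 0.48 in replicates 33 and 34. Without it the difference at maturity was 0.30 and the mean of 0.93 over the stages was called (adjusted exact p = 0.009, within a range of 0.009 to 0.329 over 20 alternatives).

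The ratio of mdh3 to mdh4 did not move alike in the lines. Between DAP 35 and DAP 24 its log2 difference was -0.90 in DAN3130 and 0.46 in JI63 (exact p = 0.405, adjusted 0.405). Between maturity and DAP 35 it was 0.20 in DAN3130 (0.020 without mature replicate 35) and 2.78 in JI63, with a mean of 1.49 (exact p = 0.035, adjusted 0.045), and 7 of 20 alternatives, each leaving out 1 library, did not call it, with adjusted p from 0.009 to 0.0707. It was lower in DAN3130 than in JI63 by a mean of -1.48, with 0.29 at DAP 24, -1.07 at DAP 35 and -3.65 at maturity (exact p = 0.00675, adjusted 0.0122).

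**Figure D4:**
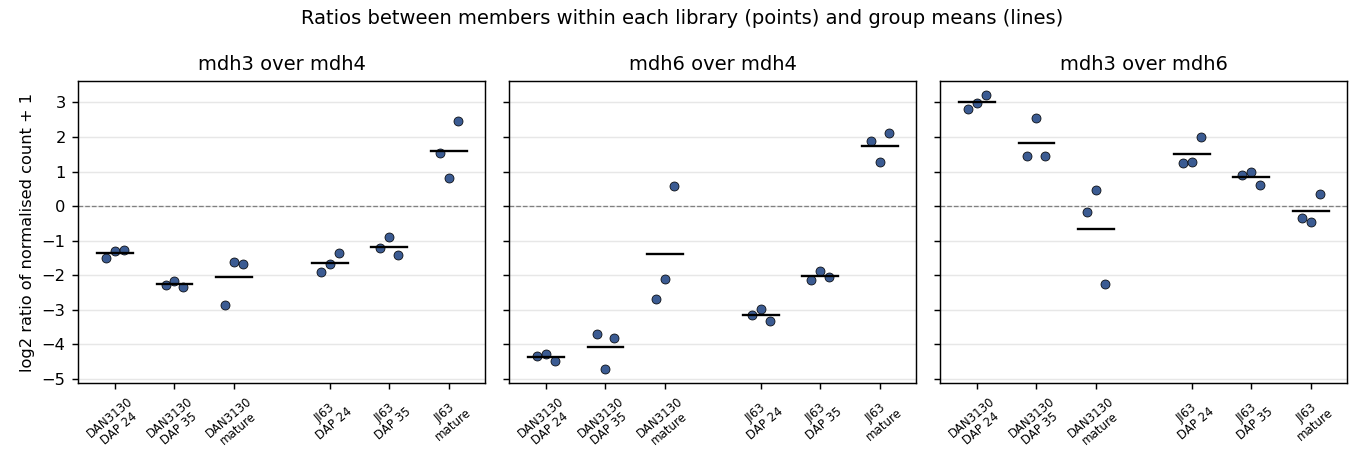
Log2 ratios of normalised count + 1 between members within each library, for mdh3 over mdh4, mdh6 over mdh4 and mdh3 over mdh6, with DAN3130 left of JI63. Points are libraries and lines are group means. Mdh6 over mdh4 averaged -1.40 in mature DAN3130 (-2.38 without replicate 35) and 1.75 in mature JI63, where it was above 0 in all 3 libraries.

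Of the members, mdh4 alone had a separate intron entry in the table. It held 262 reads at DAP 24 and 177 at DAP 35 over the 3 DAN3130 libraries, and 235 and 585 in JI63. Set against the reads of the locus itself these were 1.11% and 1.22% in DAN3130 and 1.33% and 1.51% in JI63. Mature libraries had 0 intron reads in either line, beside 604 locus reads in DAN3130, which allows up to 0.497%, and 245 in JI63, which allows up to 1.22%. The JI63 limit was below both pooled immature values. It was inside their range over single libraries, at 0.577% to 1.98% at DAP 24 and 0.542% to 2.08% at DAP 35. A drop in JI63 could thus not be told from the spread between libraries. These limits cover counting error only.

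The genes whose profile was most like that of a member were found by Pearson correlation of log2(normalised count + 1) over the 18 libraries, among 2657 named loci with a mean of at least 100. The libraries share line, stage and depth, and the correlations are a description. For mdh3 these were glycine decarboxylase1, a mitochondrial enzyme of glycine breakdown (r = 0.981), PHD-transcription factor 10 (r = 0.959) and asparagine synthetase1, which makes asparagine from aspartate (r = 0.950). Glycine decarboxylase1 averaged 123.8 normalised counts in mature DAN3130 and 641.9 in mature JI63, the same order of lines as mdh3.

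For mdh4 the most alike were cellulose synthase7 (r = 0.985), NAC-transcription factor 130 (r = 0.981) and shrunken2, the large subunit of the endosperm ADP-glucose pyrophosphorylase (r = 0.980). Shrunken2 averaged 399.8 normalised counts in mature and 41660 in DAP 35 DAN3130 kernels, and 154.3 in mature and 18218 in DAP 35 JI63 kernels. Shrunken2 is also 1 of the 13 starchy endosperm markers, whose summed level was lower in every mature library than in every immature one, as was that of mdh4. The part of the starchy endosperm in the level of mdh4 was not tested.

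For mdh6 the most alike were Sigma70-like-transcription factor 7 (r = 0.899), cycloartenol synthase1, a sterol synthesis enzyme (r = 0.869), and umc95 (r = 0.865). Sigma70-like-transcription factor 7 averaged 7.56 normalised counts in mature DAN3130 and 474.0 in mature JI63. Plants use sigma factors with the plastid-encoded RNA polymerase. The members were less alike among themselves, with r of 0.714 between mdh3 and mdh4, 0.416 between mdh3 and mdh6 and -0.016 between mdh4 and mdh6. Green tissue markers, the genes of leaf photosynthesis, summed over 19 loci to 247 to 328 normalised counts in DAN3130 and 599 to 752 in JI63 at DAP 24. They summed to 304 to 568 in DAN3130 and 349 to 709 in JI63 at DAP 35. Mature kernels had 613 to 1726 in DAN3130 and 803 to 1177 in JI63. The lines overlapped at DAP 35 and at maturity but not at DAP 24. The part of these markers in the level of mdh6 was not tested.

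Enzymes that make or use malate and oxaloacetate were taken as a list of 19 loci, of which 18 were tested. At DAP 35 against DAP 24, 3 were called higher and 2 lower in each line, where 4.41% of all loci tested were called higher and 2.14% lower in DAN3130, and 4.27% higher and 4.82% lower in JI63. With 1 library left out, the 2 lower in DAN3130 ran from 1 (without DAP 24 replicate 10 or DAP 35 replicate 12) to 4 (without mature replicate 33), and the 3 higher in JI63 from 2 to 5 (without DAN3130 mature replicate 33 or 35 or JI63 mature replicate 40). In DAN3130 malate synthase1, which condenses glyoxylate and acetyl-CoA to malate, rose by 2.41 on the log2 scale and phosphoenolpyruvate carboxykinase1, which turns oxaloacetate into phosphoenolpyruvate, by 1.74 (limma adjusted p = 0.00803 and 0.0127). Pyruvate, orthophosphate dikinase1, which interconverts pyruvate and phosphoenolpyruvate, changed by -1.40 and glutamate-oxaloacetate transaminase2, which interconverts oxaloacetate and aspartate, by -0.85 (limma adjusted p = 0.0137 and 0.00732). The calls of the carboxykinase and the dikinase each held in 23 of 25 alternatives, with adjusted p up to 0.101 and 0.0623. In JI63 malic enzyme4, which decarboxylates malate, rose by 1.57 and phosphoenolpyruvate carboxylase4, which makes oxaloacetate, by 1.16 (limma adjusted p = 6.68e-05 and 0.000527). Malic enzyme4 was also called higher in DAN3130, by 1.13 (limma adjusted p = 0.000673). Pyruvate, orthophosphate dikinase2 changed by -2.53 and pyruvate, orthophosphate dikinase1 by -1.71 in JI63 (limma adjusted p = 0.00654 and 0.00305).

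At maturity against DAP 35, 4 of the 18 were called higher and 12 lower in DAN3130, and 6 were called higher and 9 lower in JI63. Over all loci tested 19.2% were called higher and 31.5% lower in DAN3130, and 17.8% higher and 27.8% lower in JI63. Their median log2 change was -1.14 in DAN3130 and -0.52 in JI63, beside -0.43 and -0.36 over all loci. The called members moved both ways. Isocitrate lyase1, which with malate synthase forms the glyoxylate cycle that makes malate from stored lipid, averaged 53133 ± 19442 normalised counts in mature and 5054 ± 3754 in DAP 35 DAN3130 kernels (log2 difference 3.56, limma adjusted p = 1.61e-05). In JI63 it averaged 48338 ± 19508 in mature and 2676 ± 1585 in DAP 35 kernels (log2 difference 4.24, limma adjusted p = 3.39e-06).

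Malate synthase1 rose as well, by 3.54 in DAN3130 and 3.02 in JI63 on the log2 scale (limma adjusted p = 3.28e-05 and 0.00016). Pyruvate, orthophosphate dikinase2 averaged 705.9 ± 625 normalised counts in mature and 50733 ± 12747 in DAP 35 DAN3130 kernels (log2 difference -6.53, limma adjusted p = 1.27e-07), and its difference in JI63 was -4.11 (limma adjusted p = 1.54e-05). Pyruvate, orthophosphate dikinase1 fell by 4.82 in DAN3130, and NADP-dependent malic enzyme6, which turns malate into pyruvate, fell by 6.04 in JI63 (limma adjusted p = 1.63e-08 and 1.15e-07). Both were also called lower in the other line. The log2 difference was -2.69 for the dikinase in JI63 and -4.82 for the malic enzyme in DAN3130 (limma adjusted p = 6.55e-06 and 7.85e-07).

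**Figure D5:**
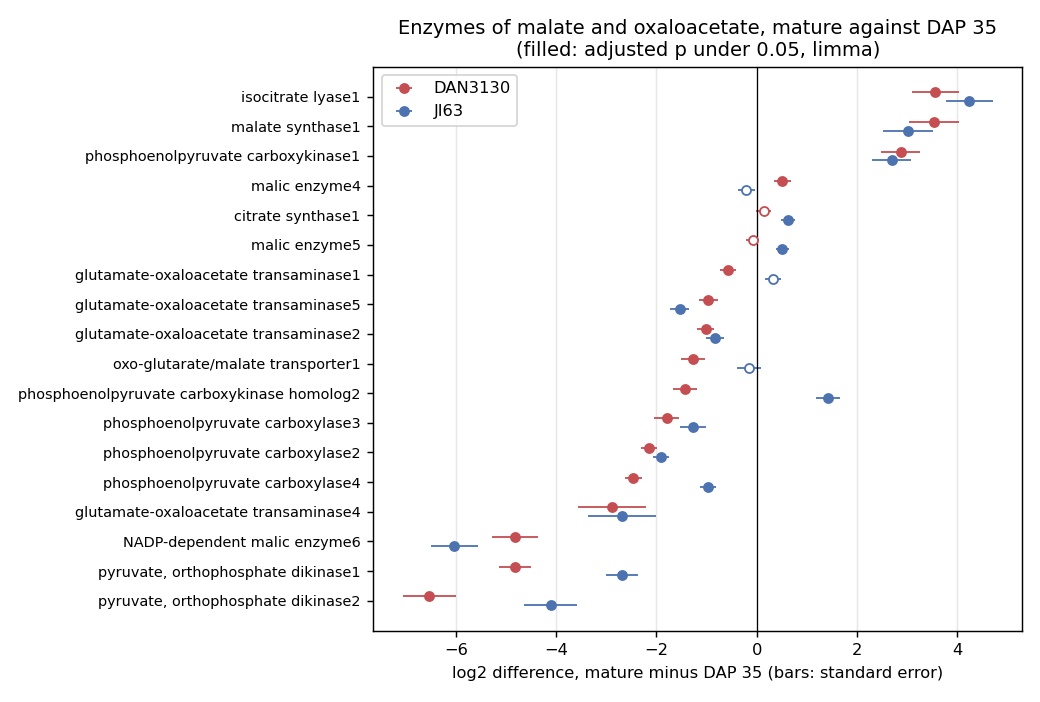
Log2 difference (horizontal axis, with standard errors) between mature and DAP 35 kernels of the 18 tested enzymes of malate and oxaloacetate metabolism, DAN3130 above JI63 for each gene. Filled points passed an adjusted p of 0.05 in limma. Isocitrate lyase1 and malate synthase1 were higher at maturity in both lines, and the 2 pyruvate, orthophosphate dikinase genes were lower in both.

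Between the lines, 5 of these 18 were called higher and 1 lower in DAN3130 at DAP 24, 5 higher and 0 lower at DAP 35, and 3 higher and 7 lower at maturity. Over all loci tested 11.2% were called higher and 13.6% lower at DAP 24, 11.3% and 11.9% at DAP 35, and 15.6% and 21.5% at maturity. The 7 lower at maturity became 2 with equal library totals or with only the groups compared, and the 3 higher became 1 without JI63 mature replicate 40. At DAP 24 phosphoenolpyruvate carboxylase4 was higher in DAN3130 by 2.29 and pyruvate, orthophosphate dikinase2 by 2.28, and malate synthase1 differed by -1.79 (limma adjusted p = 8.08e-08, 0.00426 and 0.0147). At DAP 35 pyruvate, orthophosphate dikinase2 was higher in DAN3130 by 3.04 and phosphoenolpyruvate carboxykinase homolog2 by 1.82 (limma adjusted p = 0.000431 and 3.06e-05). In mature kernels oxo-glutarate/malate transporter1, which exchanges malate across the plastid envelope, averaged 483.6 ± 36.5 normalised counts in DAN3130 and 1355 ± 341 in JI63 (log2 difference -1.45, limma adjusted p = 0.000165), lower in DAN3130 as mdh6 was. Pyruvate, orthophosphate dikinase1 differed by -1.03, NADP-dependent malic enzyme6 by 1.38 and phosphoenolpyruvate carboxykinase1 by 1.22 (limma adjusted p = 0.0188, 0.0297 and 0.0217). These 3 calls held in 20, 19 and 22 of 25 alternatives, with adjusted p up to 0.241, 0.398 and 0.069.

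The change to maturity was called different between JI63 and DAN3130 for 7 of these 18, where 13.8% of all loci tested were called, 7.92% with the JI63 change above and 5.90% with it below. In all 7 the JI63 change was above that of DAN3130, but with equal library totals 2 were above and 2 below, and there were 2 below without JI63 mature replicate 39 and 1 below without DAN3130 DAP 35 replicate 13, DAN3130 mature replicate 35 or JI63 mature replicate 41. The 7 became 3 with only the groups compared, and 4 without DAN3130 DAP 24 replicate 8 or 10, DAN3130 DAP 35 replicate 12 or 14, or JI63 DAP 35 replicate 26 or 29. The change to DAP 35 was called different for 4, where 2.36% of all loci tested were called, with the JI63 change above in 3 and below in 1. The 3 became 0 with equal totals and 1 without any 1 of 8 libraries (DAN3130 DAP 24 replicates 8, 10 and 11, DAN3130 DAP 35 replicates 12 and 13, JI63 DAP 24 replicate 24, and JI63 DAP 35 replicates 26 and 29), and the 1 below became 0 in edgeR and in 13 of the 18 fits with 1 library left out.

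A second list held 16 loci of the remaining TCA cycle enzymes, of which 15 were tested. At maturity against DAP 35, 2 were called higher and 7 lower in DAN3130, beside 19.2% and 31.5% of all loci tested, and 4 higher and 6 lower in JI63, beside 17.8% and 27.8%. With equal library totals the 2 higher in DAN3130 became 1 and the 4 higher in JI63 became 0, and the 2 also became 1 with no filter, with only the groups compared, and without DAN3130 DAP 35 replicate 13 or 14 or DAN3130 mature replicate 33 or 35. Between the lines at maturity 0 were called higher and 8 lower in DAN3130, beside 15.6% and 21.5% of all loci tested, and the 8 became 3 with equal totals. At DAP 35 against DAP 24, 1 was called higher and 1 lower in DAN3130, beside 4.41% and 2.14% of all loci tested. In JI63 1 was called higher and 0 lower, beside 4.27% and 4.82%. The 1 lower in DAN3130 became 0 without DAN3130 DAP 24 replicate 8, 10 or 11 or DAP 35 replicate 12 or 13, and the 1 higher in JI63 became 2 or 3 without JI63 DAP 35 replicate 27, JI63 mature replicate 40 or any 1 of the mature DAN3130 libraries. Between the lines 2 were called higher and 4 lower in DAN3130 at DAP 24, beside 11.2% and 13.6% of all loci tested. At DAP 35 1 was called higher and 4 lower, beside 11.3% and 11.9%. With equal totals the 4 lower at DAP 24 became 2 and the 1 higher at DAP 35 became 0. That 1 also became 0 without DAN3130 DAP 35 replicate 12 or JI63 DAP 35 replicate 26 or 27, and 2 without DAN3130 mature replicate 34 or 35.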

How the data were processed

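Kernel RNA was sequenced in 18 libraries, 3 for each of 6 groups. The authors aligned reads with HISAT2 2.1.0 to B73 without strand, assembled loci with Cufflinks and Cuffcompare, counted reads with HTSeq 0.11.2 and divided each count by a DESeq size factor. The deposited signal is this normalised count per locus, and the table also gives the length of the longest isoform. Every value was a whole multiple of 1 step per library (100% within 0.1%), so reads were recovered for count tests. EdgeR, run on these reads, called 1569 to 13740 loci in the 7 comparisons. No column of sample values was left out (0 unused).

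Groups came from the labels. The 7 comparisons and 2 differences of changes between the lines were fitted with limma 3.58.1 in R 4.3.3 (empirical Bayes with a trend) on log2(signal + 1) over all 18 libraries, for 29191 loci with a mean above 10 and without the 26258 intron entries. P-values were adjusted by Benjamini-Hochberg over all of them and called under 0.05. The script was tested on simulated data. Alternatives were pseudocounts of 0.5 and 5, no filter, only the groups compared, equal library totals, edgeR 4.0.16 with TMM, DESeq2 1.42.0 (on the recovered reads) and leaving out each library.

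Named genes were the 3 members, mdh2, the 2 partner enzymes called with the largest change each way per comparison with a mean of at least 100, and the 3 named loci most correlated with each member. The members and lists were chosen with earlier results of these data known. Replicate numbers were not shared between groups. No protein, promoter or genome sequence of these loci was used here. No 2 libraries of the same group were duplicates, and libraries of different groups were not compared in this way.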

Additional observations from a re-analysis of the deposited data

Results flagged for a closer look

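The change of mdh3 between maturity and DAP 35 differed between the lines, by 1.78 on the log2 scale (JI63 minus DAN3130, limma adjusted p = 0.00562), and all 25 alternatives called it, with adjusted p from 4e-05 to 0.0442. The intron entry of mdh4, which no comparison used, held 262 reads in DAN3130 DAP 24, 177 in DAN3130 DAP 35, 235 in JI63 DAP 24 and 585 in JI63 DAP 35 kernels, above the limit that a count of 0 allows, and 0 in mature kernels of both lines.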

How the results depend on the processing

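Of 189 member changes under other settings 171 kept direction and call, as did 471 of 486 with a library left out, 18 of 18 ratios under other settings and 152 of 162 with a library left out. Causes were not tested. All log2 differences below are in limma unless another tool is named.

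With only the groups compared in the fit, calls were gained by mdh3 in DAN3130 between DAP 35 and DAP 24 (-0.90), mdh6 in JI63 for that step (0.92) and to maturity (-0.50), mdh3 and mdh6 between the lines at DAP 24 (0.53 and -0.97), mdh3 and mdh4 at DAP 35 (-0.62 and 0.45), and the line difference in the step of mdh3 to DAP 35 (1.15). Calls were lost for mdh4 and mdh6 between the lines at maturity (1.26 and -1.89). The smaller fit there had 4 residual degrees of freedom and took its spread from the mature libraries alone. The SD within a group over all loci tested was 1.97 in mature DAN3130 and 1.19 in mature JI63, against 0.61 to 0.89 in the immature groups. DESeq2 called mdh3 in DAN3130 to DAP 35 (-0.90), between the lines at DAP 35 (-0.64) and in the line difference of that step (1.15), and a pseudocount of 5 also called the first (-0.89).

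With equal library totals, mdh6 was called lower at maturity in DAN3130 (-1.26) and JI63 (-1.45). The uncalled mdh4 step to DAP 35 in DAN3130 (-0.036) and the line difference of mdh6 to maturity (-0.19) changed sign. For mdh2 the line difference to maturity, -0.0052, became 0.11 in edgeR and ran from -0.26 to 0.19 with a library left out, and its line difference at maturity ran from -0.048 to 0.40.

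Undivided by length, the mdh3 shares were 27.1%, 16.5% and 14.1% in DAN3130 at DAP 24, DAP 35 and maturity, and 22.4%, 26.2% and 41.1% in JI63. The mdh4 shares were 69.5% and 78.7% in DAN3130 at DAP 24 and DAP 35, and 69.7%, 59.2% and 13.9% in JI63. The mdh6 shares were 3.38% in DAN3130 at DAP 24, and 14.6% and 45.0% in JI63 at DAP 35 and maturity. With mdh2 in the whole, mdh3 held 7.81%, 5.49% and 1.75% in DAN3130 and 6.69%, 9.43% and 9.27% in JI63, and mdh4 held 43.6%, 57.0% and 16.0% in DAN3130 and 45.8%, 46.6% and 6.49% in JI63. Mdh6 held 1.62% and 2.71% in DAN3130 at DAP 24 and DAP 35, and 3.99%, 8.78% and 16.6% in JI63.

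With a library left out, the step to DAP 35 in DAN3130 ran from -0.94 to -0.85 for mdh3 (called without any 1 of the mature DAN3130 libraries) and from -0.077 to 0.076 for mdh4, and the mdh6 step to maturity in DAN3130 from -1.45 (without mature replicate 35) to -0.33. Between the lines at DAP 24, mdh3 ran from 0.46 to 0.62 and mdh6 from -1.11 to -0.83, and at DAP 35 mdh3 ran from -0.73 to -0.52 and mdh6 from -1.84 to -1.21. The line differences of steps ran from 1.05 to 1.25 for mdh3 to DAP 35, from -1.17 (without JI63 mature replicate 40) to -0.57 for mdh4 to maturity and from -0.17 (without DAN3130 mature replicate 33) to 0.95 for mdh6 to maturity. The ratio of mdh6 to mdh4 to DAP 35 ran from 0.62 to 0.87, lost without DAN3130 DAP 35 replicate 12 or 14, that of mdh3 to mdh4 to maturity from 1.28 to 1.69, and that of mdh3 to mdh6 between the lines from 0.47 to 0.93, called without DAN3130 mature replicate 35.

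Counts over all loci moved too. In DAN3130 the 1912 calls became 6005 with only the groups compared and 3346 in DESeq2, and in JI63 the 2653 calls became 5058 and 4260. For the line difference of that step 690 calls became 4516 with only the groups compared. Between the lines 7244 calls at DAP 24 became 13516 and 10837 at maturity became 3663 with only the groups compared, and for the line difference of the step to maturity 4032 calls became 7376 without DAN3130 mature replicate 35. No paired analysis was made because the labels do not tie libraries of different groups to each other. Mdh3 rests on 30 to 75 reads a library in mature DAN3130 and mdh6 on 33 to 364, which limits the precision of those shares.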
